A study of Homo sapiens with 12 samples.

Results

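The genes described here are the ZNF genes of human chromosome 19, a set of zinc finger protein genes that lie side by side in long clusters. All rows of the deposited count table whose symbol begins with ZNF and whose chromosome is 19 were taken, which gave 252 rows, and the 137 of them with 10 or more counts in at least 6 of the 12 libraries are called the members. The table held 19901 genes in all, of which 13093 passed the same filter and were tested. RNA-Seq had been done on HCT116 cells, a human colorectal carcinoma line, of the genotype KAP1_dTAG_CloneD5, so that all libraries come from 1 clone in which the corepressor KAP1, the product of TRIM28, carries a degradation tag. Every culture was starved of serum for 48 h and received either the degrader dTAG or its solvent DMSO for the last 8 h. Serum was then withheld or given for 30 min, which makes 4 groups of 3 libraries each: DMSO-S0 (DMSO, no serum), DMSO-S30 (DMSO, 30 min of serum), dTAG-S0 (dTAG, no serum) and dTAG-S30 (dTAG, 30 min of serum). The comparisons ask how these genes respond to serum with KAP1 present, how they respond after KAP1 depletion, and what depletion alone does to them.

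Most ZNF proteins of chromosome 19 carry an array of C2H2 zinc fingers, each a short fold held together by a zinc ion, and the fingers together read a stretch of DNA. Many also carry a KRAB domain at the start of the protein, which binds KAP1. KAP1 in turn brings the histone methyltransferase SETDB1 and HP1 proteins, and this machinery is best known for silencing retrotransposons. The genes arose by repeated tandem duplication, so that neighbours in a cluster are often each other's closest relatives. The ZNF clusters are themselves known as sites of KAP1 and of the repressive mark H3K9me3 over the exons that encode the fingers.

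The 12 libraries held 20537682 to 26278707 counts, of which 7.97% to 9.37% were ERCC spike-ins, RNAs of known sequence added in a fixed amount. The members took 0.408% to 0.468% of the counts of genes. The labels name no batch, and the study describes the 3 libraries of a group as biological replicates. Levels are given as CPM, counts scaled to the size of the library. Of 6 epithelial markers, EPCAM, CDH1, KRT8, KRT18 and KRT19 were at 79.1 CPM or more in every library, and VIL1 had at most 7 counts. Their summed level was 1141 to 1193 CPM in DMSO-S0, 1309 to 1405 in DMSO-S30, 1166 to 1310 in dTAG-S0 and 1367 to 1563 in dTAG-S30. Of the 4 markers of other cell types, PTPRC, PECAM1 and DES stayed at or below 1.54 CPM, and COL1A1 was measured at 11.8 to 85.5 CPM and rose with serum (log2 fold change 2.48, adjusted p = 2.93e-18 in DMSO). The summed level of these 4 markers was 15.4 to 17.7 CPM in DMSO-S0, 81.3 to 86.8 in DMSO-S30, 13.3 to 15.99 in dTAG-S0 and 68.4 to 79.2 in dTAG-S30, and the part of either list in the serum results was not tested. In bulk RNA, fewer cells expressing a gene and less RNA per cell cannot be told apart.

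Clusters were defined by position alone: a new one begins wherever more than 1 Mb separates a ZNF row from the next, and groups of 3 or more rows are numbered from the start of the chromosome. This gave 10 clusters with 244 rows and 131 members. The other 8 rows lie alone or in pairs, and 6 of them (ZNF333, ZNF507, ZNF574, ZNF526, ZNF114 and ZNF473) are members.

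Some neighbours have promoters of similar sequence. RefSeq promoters (GRCh38.p14, 250 bases before to 50 after a start) were given for 123 members, with 147 promoters in all, and were searched on both strands for 5 short motifs. The CRE letters TGACGTCA, the site bound by CREB, were found in 6.12% of the members' promoters, against 1.85% of all 35116 promoters in the table and 2.71% of those of genes tested. They occurred in 8 members, and 5 of these are consecutive members in cluster 2, whose serum response is described below. The 48 bases around each are shown for that reason, with the CRE in capitals.
ZNF266, chr19:9435563-9435610, minus strand: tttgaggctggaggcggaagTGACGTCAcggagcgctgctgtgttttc
ZNF426, chr19:9538639-9538686, minus strand: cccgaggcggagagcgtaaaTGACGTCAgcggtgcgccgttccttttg
ZNF121, chr19:9584527-9584574, minus strand: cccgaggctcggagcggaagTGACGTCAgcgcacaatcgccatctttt
ZNF561, chr19:9621228-9621275, minus strand: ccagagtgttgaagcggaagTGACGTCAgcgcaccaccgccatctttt
ZNF562, chr19:9675080-9675127, minus strand: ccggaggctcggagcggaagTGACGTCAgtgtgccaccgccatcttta
ZNF875, chr19:37334616-37334663, plus strand: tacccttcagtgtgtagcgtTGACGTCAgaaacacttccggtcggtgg
ZNF460, chr19:57280434-57280481, plus strand: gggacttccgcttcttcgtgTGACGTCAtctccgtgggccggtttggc
ZNF543, chr19:57320458-57320505, plus strand: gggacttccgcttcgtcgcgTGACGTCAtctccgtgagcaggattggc
Outside the CRE itself, ZNF121 and ZNF561 were identical at 33 of 40 flanking bases (82.5%), ZNF121 and ZNF562 also at 33, and ZNF561 and ZNF562 at 31. The other pairs of these 5 neighbours were less alike, with ZNF266 identical to the rest at 17 to 20 bases and ZNF426 to ZNF121, ZNF561 and ZNF562 at 21 to 23. ZNF460 and ZNF543, neighbours in cluster 10, were identical at 35 of 40 (87.5%). ZNF875 of cluster 6 matched none of the others at more than 11 of 40.

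A second family lies in cluster 4. The CCAAT box (CCAAT, the site bound by NF-Y) was found in 47.6% of the members' promoters, against 34.6% of all promoters. After the promoters had been seen, a spacing was singled out: 2 CCAAT boxes exactly 29 bases apart on the gene's own strand. Over all 35116 promoters, 65 hold this pair (0.185%). It was found in 16 ZNF rows of chromosome 19, all 16 in cluster 4, of which 8 are members and 8 were not expressed enough to be tested. The 60 bases that hold the pair in the 8 members are shown with the boxes in capitals, because they are near-copies of each other and their genes' serum values are given below.
ZNF90, chr19:20077908-20077967, plus strand: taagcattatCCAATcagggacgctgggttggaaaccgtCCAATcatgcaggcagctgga
ZNF85, chr19:20923160-20923219, plus strand: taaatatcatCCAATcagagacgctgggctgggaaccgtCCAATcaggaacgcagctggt
ZNF430, chr19:21020561-21020620, plus strand: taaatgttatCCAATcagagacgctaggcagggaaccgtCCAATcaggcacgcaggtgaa
ZNF714, chr19:21082106-21082165, plus strand: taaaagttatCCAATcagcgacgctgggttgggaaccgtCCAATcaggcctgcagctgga
ZNF431, chr19:21141943-21142002, plus strand: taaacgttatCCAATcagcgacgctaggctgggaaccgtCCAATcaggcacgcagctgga
ZNF493, chr19:21397039-21397098, plus strand: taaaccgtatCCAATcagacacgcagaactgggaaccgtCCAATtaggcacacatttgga
ZNF724, chr19:23250426-23250485, minus strand: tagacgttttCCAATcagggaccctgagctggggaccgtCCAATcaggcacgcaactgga
ZNF675, chr19:23687215-23687274, minus strand: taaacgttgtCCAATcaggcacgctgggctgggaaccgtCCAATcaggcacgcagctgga
Over the 28 pairs of these windows, 73.3% to 93.3% of the 60 bases were identical (median 85.0%).

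The ETS motif CCGGAAG was found in 41.5% of the members' promoters, against 10.3% of all promoters and 15.8% of those of genes tested. The GC box GGGCGG was found in 64.0% of the members' promoters and in 65.1% of those of genes tested, and the AP-1 site TGACTCA in only 1 member, ZNF235 (0.680% against 3.60%). The promoter of ZNF586 of cluster 10 (chr19:57769426-57769725, plus strand), one of the members that fell most with serum, is printed whole as an example that holds an ETS motif, a CCAAT box and a GC box, each in capitals.
ZNF586: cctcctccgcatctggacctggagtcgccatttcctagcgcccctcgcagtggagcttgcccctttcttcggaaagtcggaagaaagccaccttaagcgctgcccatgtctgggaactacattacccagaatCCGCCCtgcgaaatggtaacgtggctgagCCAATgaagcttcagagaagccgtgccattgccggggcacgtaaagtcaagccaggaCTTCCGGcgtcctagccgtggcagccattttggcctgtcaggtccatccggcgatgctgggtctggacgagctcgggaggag
A match is only a match of letters, and no match says only that these letters are not in the window.

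Levels differed widely along the clusters, and the border between members and untested rows is set by the count filter itself. The 115 rows that were not tested had mean counts of at most 6.08 per library (median 0.417), and 28 of them had no count in any library. The members had mean counts of 9.75 to 8210 (median 442), and 133 of the 137 reached 10 counts in all 12 libraries. The rows nearest the filter were ZNF571 and ZNF233 outside it, at mean counts of 5.67 and 6.08, and ZNF580 and ZNF585B inside it, at 9.75 and 12. Members and untested rows lay together in most clusters, at shares that differed. In cluster 3 only 8 of 27 rows were members, in cluster 4 only 15 of 37, and in cluster 5 all 5. An overlap with another gene model was found for 57 of the 115 untested rows and for 43 of the members. Because the counting is not stated to use strand, reads of those 43 members and of their partners cannot be told apart.

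**Figure D1:**
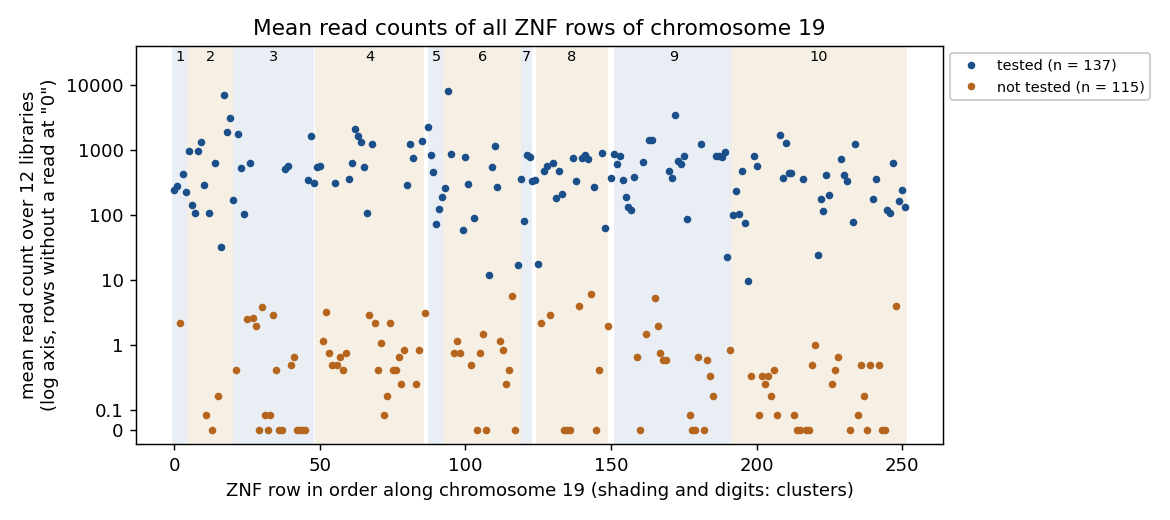
Mean read count over the 12 libraries (log axis, rows without any read drawn at 0) of the 252 ZNF rows in their order along chromosome 19, with the 10 clusters shaded and numbered. The 137 members lie at 9.75 or above and the 115 untested rows at 6.08 or below, a border set by the count filter. Both kinds occur in most clusters.

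The median member was expressed at 20.4 CPM, below the 36.1 CPM of the median gene tested. Per length of the gene model, the highest members were ZNF146 (15.7 CPM per kb), ZNF121 (13.3), ZNF561 (5.19), ZNF302 (4.42) and ZNF460 (4.39). ZNF146 encodes a protein made almost wholly of fingers, without a KRAB domain, and was at 353 to 410 CPM in all 12 libraries. ZNF121, ZNF561 and ZNF460 are 3 of the 8 members with a CRE, and the median level of those 8 was 56.8 CPM, against 19.4 CPM for the 115 members with a promoter and no CRE.

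Several genes with a known role were among the 115 rows that were not tested. ZNF93, which represses LINE-1 elements, had a mean count of 0.75, as had ZNF568, whose mouse counterpart silences a placental Igf2 transcript. ZNF331, an imprinted gene, was at 0.833, ZNF534 at 0.583 and ZNF417 at 0.0833. ZNF417 is a near-copy of ZNF587, and 36.0% of its exonic 50-base words occur in other genes. ZNF587 was expressed at 52.7 to 63.6 CPM, and how reads that fit both were assigned is not given in the sources used here. Over all members, 13 share more than 10% of such words with another gene and 124 do not.

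Serum given for 30 min in DMSO-treated cells lowered more of these genes than it raised. Of the 137 members, 36 were lower (26.3%) and 3 were higher (2.19%), against 17.1% lower and 9.19% higher among all 13093 genes tested. The fold change was below 0 in 104 members, and its median was -0.16 on the log2 scale, against -0.07 for all genes tested. The ZNF genes on other chromosomes gave a similar median (-0.12, with 50 of 212 lower and 10 higher), whereas the 787 other genes tested on chromosome 19 had a median of 0.01, with 75 lower and 86 higher. In each of the 3 DMSO-S30 libraries the median member was below the mean of the DMSO-S0 libraries, by -0.13, -0.15 and -0.15, where the median gene was at -0.08, -0.07 and -0.06. In 61 members (44.5%) all DMSO-S30 libraries were below all DMSO-S0 libraries and in 7 (5.11%) all were above, against 30.6% and 13.8% of all genes. With library sizes taken from the ERCC spike-ins alone, 12 members were lower and 2 higher, and with TMM scaling 22 were lower and 6 higher, around medians of -0.09 for the members and 0.00 for all genes. The shares of all genes given above come from the main fit and do not apply to these counts.

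The changes were small. Among the members called lower the median log2 fold change was -0.36, and 4 of the 39 calls passed 1.5-fold. ZNF738 of cluster 4 (ENSG00000172687.13, hg38 chromosome 19, 21358930 to 21379302, plus strand) had the smallest p-value of all members. It was at 31.4, 33.8 and 29.1 CPM in DMSO-S0 and at 18.0, 20.4 and 18.9 CPM in DMSO-S30. All 3 libraries with serum thus lay far below all 3 without, a log2 fold change of -0.72 (SE 0.09, adjusted p = 1.61e-06). In dTAG-treated cells it went from 27.7, 31.2 and 28.2 CPM to 23.0, 17.8 and 20.2 CPM, again without overlap (-0.51, SE 0.09, adjusted p = 0.000135).

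ZNF226 of cluster 8 (ENSG00000167380.16, 44165073 to 44178381, plus strand) was at 43.5, 43.4 and 40.3 CPM without serum and at 29.5, 30.8 and 32.7 CPM with it in DMSO (-0.44, SE 0.07, adjusted p = 3.36e-05). In dTAG it was at 37.5, 39.0 and 37.1 CPM and at 30.8, 29.8 and 30.5 CPM (-0.33, SE 0.07, adjusted p = 0.000867). The groups did not overlap in either treatment. ZNF586 of cluster 10 (ENSG00000083828.15), whose promoter is printed above, was at 23.7, 20.8 and 25.6 CPM and then at 16.1, 15.9 and 17.6 CPM in DMSO (-0.50, SE 0.10, adjusted p = 0.000403). Its model overlaps those of ZNF552 and ZNF587B, and ZNF552 also fell (-0.44, adjusted p = 0.00169). ZNF573 of cluster 6 (ENSG00000189144.13) was at 20.4, 19.1 and 20.8 CPM and then at 13.6, 15.5 and 12.8 CPM (-0.52, SE 0.10, adjusted p = 0.000307), and ZNF440 of cluster 3 fell by 0.38 (SE 0.07, adjusted p = 0.000327). These 4 calls and that of ZNF738 stood under every alternative run for them.

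The other large falls were in genes with few reads. ZNF599 of cluster 5 (ENSG00000153896.17, 34758076 to 34773229, minus strand) was at 4.51, 4.95 and 4.32 CPM and then at 2.60, 2.64 and 3.04 CPM (-0.73, SE 0.17, adjusted p = 0.00242). ZNF585B had the largest fall of all, -1.82 (SE 0.51, adjusted p = 0.00911), but rests on a mean of 12 counts. Its libraries were at 0.742, 1.10 and 0.540 CPM against 0.147, 0.308 and 0.241 CPM, its model overlaps ZNF383, which also fell (-0.42), and the call was lost without DMSO-S0 replicate 2 (adjusted p = 0.0807, range 0.00026 to 0.0807 over 22 alternatives). ZNF493 (-0.56, SE 0.17, adjusted p = 0.0127) and ZNF30 (-0.54, SE 0.15, adjusted p = 0.0111) also fell without overlap of the groups. The call of ZNF493 was lost without DMSO-S0 replicate 3 (0.0693) and without DMSO-S30 replicate 3 (0.0598), within a range of 0.00336 to 0.0888 over 24 alternatives. That of ZNF30 was lost without DMSO-S0 replicate 2 (0.133) and without DMSO-S30 replicate 1 (0.0527), within a range of 0.00275 to 0.133 over 25. The row ZNF559-ZNF177 is a readthrough model. Of its exonic words, 82.7% occur in other genes, with ZNF177 sharing the most, so its value (-0.72, SE 0.19, adjusted p = 0.00546) is uncertain. The call was lost without DMSO-S0 replicate 3 (0.152, range 0.000191 to 0.152 over 23 alternatives).

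The rises were ZNF561, ZNF724 and ZNF791. ZNF561 (ENSG00000171469.10, 9604680 to 9621399, minus strand) was at 73.4, 82.2 and 78.5 CPM without serum and at 98.96, 96.9 and 96.8 CPM with it. All libraries with serum were above all without (0.30, SE 0.06, adjusted p = 0.000263). The same held in dTAG, from 80.5, 78.7 and 81.4 CPM to 93.9, 89.6 and 91.0 CPM (0.21, SE 0.05, adjusted p = 0.00704), and of the 137 members ZNF561 alone was called higher in both treatments. The call in dTAG was lost with ERCC library sizes (0.0619). ZNF724 was at 12.03, 11.9 and 11.1 CPM and at 13.3, 14.1 and 15.3 CPM (0.32, SE 0.10, adjusted p = 0.0230). Of its exonic words, 54.6% occur in other genes, with an overlapping model sharing the most. The call was lost without DMSO-S0 replicate 3 (0.0917) and without DMSO-S30 replicate 3 (0.108, range 0.00627 to 0.108 over 23 alternatives). ZNF791 went from 72.7, 69.9 and 75.5 CPM to 82.6, 79.4 and 82.3 CPM (0.16, SE 0.06, adjusted p = 0.0459). Its model overlaps that of ZNF490. Leaving out any 1 of 7 libraries (DMSO-S0 replicates 1 and 2, dTAG-S0 replicates 1 and 3, and each of DMSO-S30) ended this call, with adjusted p from 0.00350 to 0.184 over 24 alternatives.

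In dTAG-treated cells, serum again lowered more members than it raised: 31 were lower (22.6%) and 3 were higher, against 15.4% and 9.13% of all genes. The members had a median of -0.14 against -0.06 and 108 of 137 members below 0. With library sizes from the ERCC spike-ins alone, 12 were lower and 0 higher, counts to which those shares of the main fit do not apply. In 58 members (42.3%) all dTAG-S30 libraries lay below all dTAG-S0 libraries and in 7 all lay above, against 24.9% and 12.6% of all genes. The serum effects in DMSO and in dTAG compare different libraries but come from 1 fit. The spread between libraries was estimated over both treatments together, so the calls in DMSO and in dTAG are not independent. Of the 39 and 34 members called, 26 were called in both, 25 lower and 1 higher, which is 66.7% of the first and 76.5% of the second. Over all genes tested the shares were near these, since 2320 genes were called in both, 67.4% and 72.1% of those called. All 39 and all 34 had the same sign in the other treatment, as had 123 of all 137 members. Across the members, Pearson's r was 0.794 and Spearman's rho 0.760, and across all genes Pearson's r was 0.878. Members share libraries within each treatment and are not independent, so no p is given.

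The largest calls in dTAG were in genes already described. ZNF599 (-0.63, SE 0.17, adjusted p = 0.00773), ZNF559-ZNF177 (-0.55, SE 0.18, adjusted p = 0.0262) and ZNF493 (-0.55, SE 0.15, adjusted p = 0.0107) were the largest falls. The call of ZNF559-ZNF177 was lost without dTAG-S0 replicates 2 (0.0917) or 3 (0.0660) and without dTAG-S30 replicates 2 (0.117) or 3 (0.0732), within 0.00109 to 0.117 over 23 alternatives. That of ZNF493 was lost without dTAG-S0 replicate 2 (0.0582) or dTAG-S30 replicate 3 (0.0814), within 0.00059 to 0.0814 over 24. The rises besides ZNF561 were ZNF628 and ZNF460, both of cluster 10. ZNF460, one of the members with a CRE, was at 54.1, 57.3 and 54.9 CPM in dTAG-S0 and at 70.0, 61.6 and 63.6 CPM in dTAG-S30 (0.24, SE 0.07, adjusted p = 0.0124). The call was lost without dTAG-S30 replicate 1 (0.17, adjusted p = 0.0997, range 0.00151 to 0.0997 over 25 alternatives). ZNF628 was at 4.09, 3.38 and 3.997 CPM and at 5.12, 5.59 and 5.12 CPM (0.46, SE 0.16, adjusted p = 0.0364), and lost its call without any 1 of 6 libraries (DMSO-S0 replicate 3, dTAG-S0 replicates 2 and 3, and each of dTAG-S30), within 0.0150 to 0.148 over 25 alternatives.

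**Figure D2:**
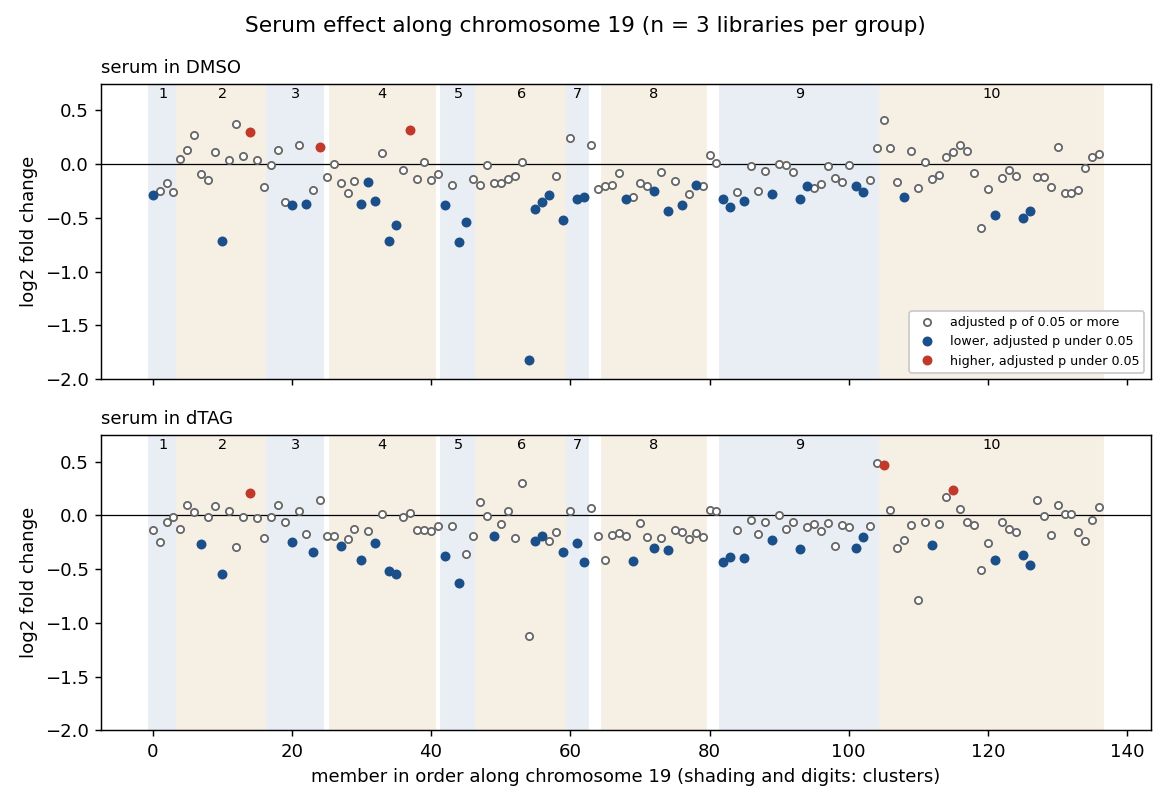
Log2 fold change with serum of the 137 members in their order along chromosome 19, in DMSO (upper) and in dTAG (lower), with clusters shaded and numbered. Filled points passed an adjusted p of 0.05 (39 in DMSO, 34 in dTAG), and most points of clusters 4 to 9 lie below 0 in both, whereas those of cluster 2 lie on both sides.

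By position, the falls were spread over the chromosome. In DMSO the median was below 0 in 9 of the 10 clusters. It was -0.25 in cluster 1 (ZNF554 to ZNF77, 4 members), -0.12 in cluster 3 (ZNF653 to ZNF791, 8 members), -0.16 in cluster 4 (ZNF101 to ZNF254, 15 members) and -0.38 in cluster 5 (ZNF302 to ZNF792, 5 members). It was -0.18 in cluster 6 (ZNF565 to ZNF573, 13 members), -0.31 in cluster 7 (ZNF546 to ZNF780A, 3 members), -0.21 in cluster 8 (ZNF575 to ZNF296, 15 members), -0.18 in cluster 9 (ZNF175 to ZNF331, 23 members) and -0.11 in cluster 10 (ZNF628 to ZNF446, 32 members). In cluster 2 (ZNF557 to ZNF846, 13 members) it was 0.05. In dTAG the median was below 0 in all 10 clusters. It was -0.02 in cluster 2, where 8 of 13 members were below 0, 2 fell and 1 rose, close to -0.04 in cluster 3 and -0.08 in cluster 10. In the others it was between -0.36 (cluster 5) and -0.10 (cluster 1). The differences between clusters were not tested, since members of a cluster are not replicates. The 6 members outside clusters had a median of -0.04, and none was called.

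Cluster 8 had values of one sign throughout, as had the smaller clusters 1 and 5. All 15 members of cluster 8 were below 0 in DMSO and all 15 in dTAG. The values ran from -0.44 to -0.08 and from -0.43 to -0.07. In DMSO 5 and in dTAG 3 passed the test, where 17.1% and 15.4% of all genes were called lower. The longest run of consecutive members below 0 was the same in both treatments, 16 members from ZNF526, which lies before the cluster, to ZNF296. The 20 other genes tested in the span of cluster 8 had a median of 0.11, with 6 higher and 3 lower. ZNF224, a repressor of the aldolase A gene, was at 36.8, 39.3 and 36.9 CPM and then at 31.8, 32.9 and 31.4 CPM in DMSO (-0.25, SE 0.08, adjusted p = 0.0182), and at 37.2, 40.6 and 38.4 CPM and then at 33.4, 32.4 and 27.6 CPM in dTAG (-0.31, adjusted p = 0.00334). The groups did not overlap in either treatment. The DMSO call of ZNF224 was lost without DMSO-S0 replicate 2 (0.0726) and without DMSO-S30 replicates 1 (0.0663) or 3 (0.0641), within a range of 0.00968 to 0.280 over 25 alternatives. In other spans the neighbouring genes had medians below 0 in DMSO too. The median was -0.29 for the 19 other genes tested within cluster 10, of which 5 fell, and -0.32 for the 3 within cluster 9, of which 1 fell. It was -0.27 for the 2 within cluster 4, -0.22 for the 4 within cluster 6, -0.02 for the 8 within cluster 3 and 0.00 for the 33 within cluster 2. In dTAG it was -0.03 within cluster 10, -0.33 within cluster 9 and 0.13 within cluster 8.

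All called members of the small clusters 5 and 7 were lower. In cluster 5, ZNF302, ZNF599 and ZNF30 fell, and all 5 members were below 0. ZNF302 was at 45.3, 50.1 and 41.4 CPM and then at 34.1, 37.0 and 34.7 CPM (-0.38, SE 0.09, adjusted p = 0.00257). In cluster 7 the tandem neighbours ZNF780A and ZNF780B both fell, in DMSO (-0.31, adjusted p = 0.00224, and -0.33, adjusted p = 0.00195) and in dTAG (-0.44, adjusted p = 3.43e-05, and -0.26, adjusted p = 0.0124). The DMSO call of ZNF780B was lost with ERCC library sizes (-0.23, adjusted p = 0.153). ZNF780A in dTAG had the smallest p-value of all members in that comparison. It was at 41.6, 42.7 and 42.5 CPM in dTAG-S0 and at 32.9, 32.1 and 28.4 CPM in dTAG-S30, without overlap. In cluster 9, ZNF577 fell most (-0.40, SE 0.08, adjusted p = 0.000815, lost with ERCC library sizes at 0.0533), and in cluster 1 ZNF554 (-0.29, adjusted p = 0.0374, lost without any 1 of the 6 libraries compared, range 0.0146 to 0.184 over 25 alternatives). The largest value in cluster 10 was that of ZNF550 (-0.59, SE 0.32), which did not pass the test (adjusted p = 0.179).

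**Figure D3:**
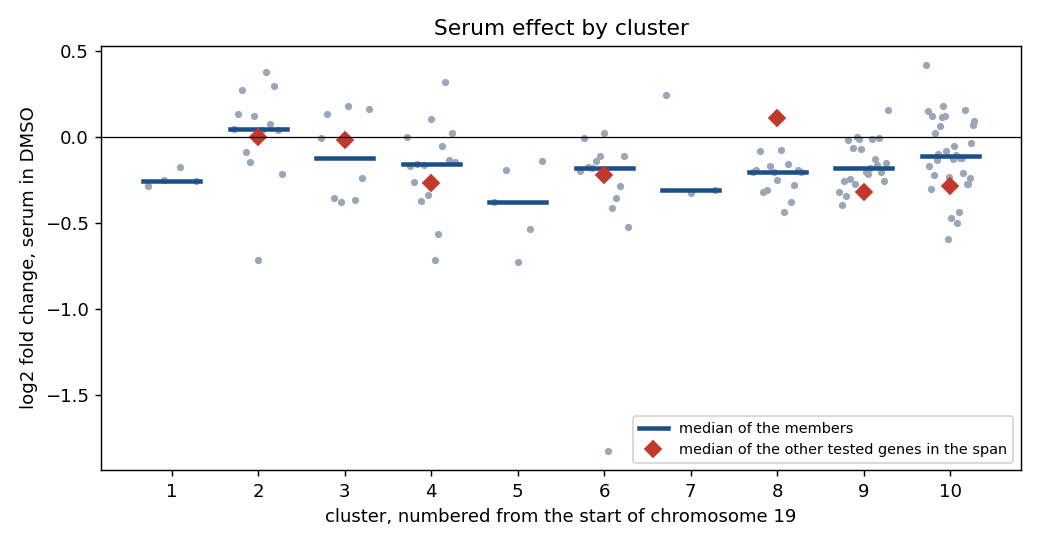
Log2 fold change with serum in DMSO of each member (points) by cluster, with the median of the members (bars) and the median of the other tested genes in the same span (diamonds, where there are any). The bar of cluster 2 is at 0.05 and those of the other clusters are between -0.38 and -0.11, and in cluster 8 the diamond, at 0.11, is above all 15 members.

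Within cluster 2, the 5 consecutive members with a CRE were all above 0 in DMSO, the longest such run among the members. ZNF561 passed the test. ZNF266 (0.04, 95% interval -0.11 to 0.20), ZNF121 (0.07, -0.05 to 0.20) and ZNF562 (0.04, -0.08 to 0.16) were near 0, and ZNF426 (0.38, -0.17 to 0.92) was too low, at a mean of 32.2 counts, for a narrow interval. In dTAG, 2 of the 5 were above 0. The 7 members of cluster 2 with a promoter and no CRE had a median of 0.05 and the 5 with one of 0.07, so within the cluster the medians lay close together. Of the 3 members with a CRE elsewhere, ZNF460 and ZNF543 were above 0 in both treatments, and ZNF875 fell in both (-0.35, adjusted p = 0.000461, and -0.20, adjusted p = 0.0360). Over all 8 the median was 0.09 in DMSO and 0.01 in dTAG, against -0.17 and -0.15 for the 115 without.

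The 8 near-copies in cluster 4 were followed in both treatments, with no test of differences between the genes. Of the 8 members with paired CCAAT boxes, 4 fell in DMSO (ZNF430, ZNF714, ZNF431 and ZNF493), 1 rose (ZNF724) and 3 did not pass the test. ZNF431 was at 85.1, 81.5 and 83.6 CPM and then at 59.8, 69.5 and 68.6 CPM (-0.34, adjusted p = 0.00100), whereas ZNF675 was at 36.4, 35.1 and 33.8 CPM and then at 36.1, 34.7 and 35.0 CPM (0.02, adjusted p = 0.871). The windows of ZNF724 and ZNF675 are identical at 53 of 60 bases, and those of ZNF431 and ZNF724 at 52 of 60. ZNF714 was at 102 to 110 CPM without serum and at 92.9 to 95.2 CPM with it (-0.16, adjusted p = 0.0346). The median of the 8 was -0.21. In dTAG, 7 of the 8 were below 0, 3 fell (ZNF430, ZNF431 and ZNF493) and 0 rose, with a median of -0.18, where ZNF724 was at 0.03 and ZNF675 at -0.14.

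Other features were compared by their medians, with no test. By a pattern of letters in the coding sequences (GENCODE v44), a KRAB A-box was found in 107 members (78.1%) and in 96 of the 111 untested rows with a coding sequence (86.5%). The median serum effect in DMSO was -0.17 with the pattern and -0.15 without, and 32 of 107 (29.9%) against 4 of 30 (13.3%) were called lower, where the members without the pattern were expressed at a median of 9.16 CPM and those with it at 23.5 CPM. The members held 1 to 31 C2H2 fingers (median 12), and ZNF91, which represses SVA elements, held the most. The median was -0.13 for the 50 members with at most 10 fingers, -0.19 for the 48 with 11 to 14 and -0.16 for the 39 with 15 to 31. An ETS motif in the promoter went with a median of -0.16 and its absence with -0.15. By length of the gene model, 16 of the 46 longest members (34.8%) and 8 of the 46 shortest (17.4%) were called lower. Among all genes tested, 17.1% were called lower. The median effects of the longest and the shortest were -0.17 and -0.15, and their median levels were 30.2 and 11.3 CPM.

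Of the members with known roles, ZNF224 and ZNF175 fell with serum in both treatments and ZNF558 in dTAG, and the others did not pass the test. ZNF91 was at 62.7 to 64.0 CPM in DMSO-S0 and at 54.3 to 60.4 CPM in DMSO-S30, without overlap, and did not pass the test (-0.13, SE 0.07, adjusted p = 0.136). ZNF473, a factor of histone pre-mRNA processing, differed by 0.01 (95% interval -0.13 to 0.16). ZNF274, which binds the 3′ ends of ZNF genes and recruits KAP1 and SETDB1 there, differed by 0.16 (-0.03 to 0.34), ZNF587 by -0.12 (-0.26 to 0.02) and ZNF350, a corepressor partner of BRCA1, by -0.02 (-0.33 to 0.29). ZNF175 fell by 0.32 in DMSO (adjusted p = 0.00981) and by 0.44 in dTAG (adjusted p = 0.000633), and the first call was lost with TMM scaling (0.0505) and ERCC library sizes (0.0788). ZNF649 differed by -0.26 (adjusted p = 0.0594). ZNF146 differed by -0.00 (-0.12 to 0.11). The models of ZNF146 and ZNF565 overlap each other, as do those of ZNF649 and ZNF577, and ZNF473 overlaps VRK3, ZNF587 overlaps ZNF814, ZNF235 overlaps ZNF227 and ZNF233, ZNF550 overlaps ZNF549 and ZNF580 overlaps ZNF581. ZNF558 fell in dTAG (-0.27, SE 0.07, adjusted p = 0.00628) and not in DMSO (-0.09, adjusted p = 0.402), and the difference between the treatments was -0.18 (95% interval -0.39 to 0.03).

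For most members, KAP1 depletion for 8 h gave differences whose intervals lay under 1.5-fold. Without serum no member passed the test, against 1.34% of all genes, and with serum none did, against 1.23%. At an unadjusted p under 0.05 there were 11 of the 137 members without and 8 with serum, against 1529 and 1364 of all 13093 genes. Calls by other tests were 1 without serum, ZNF114 with the likelihood ratio test, and 0 with DESeq2. The medians were -0.02 and -0.00, as for all genes (-0.01 and -0.00). In 11 members (8.03%) all dTAG-S0 libraries lay above all DMSO-S0 libraries and in 16 (11.7%) below, against 8.5% and 9.23% of all genes. With serum these were 5 (3.65%) above and 16 (11.7%) below, against 7.62% and 8.1%. The 95% interval lay within 1.5-fold in either direction for 126 members without serum, 129 with serum and 131 when the effect was averaged over serum.

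**Figure D4:**
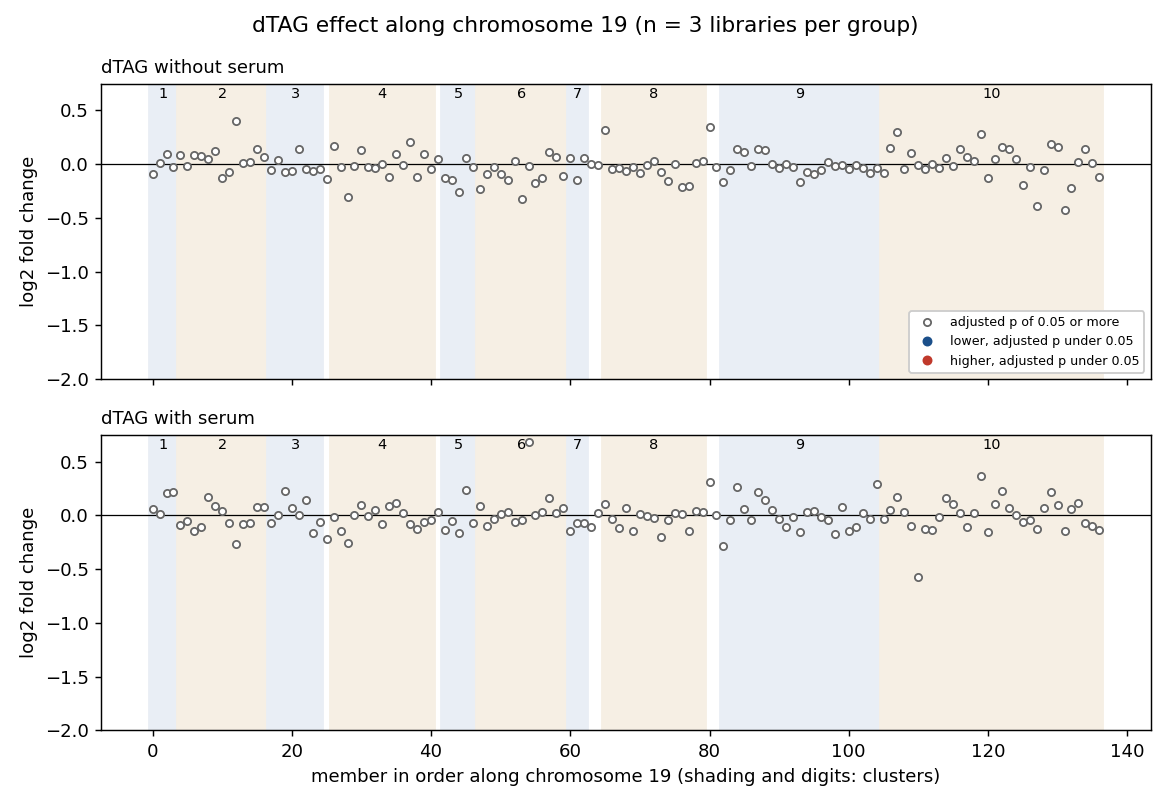
Log2 fold change with dTAG of the 137 members in their order along chromosome 19, without serum (upper) and with serum (lower), on the same axis as the serum effects. No point passed an adjusted p of 0.05 in either, and the points lie between -0.43 and 0.41 without serum and between -0.57 and 0.68 with it.

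Averaged over serum, 3 members passed the test, 1 higher (0.730%) and 2 lower (1.46%), against 2.22% and 2.28% of all genes. ZNF114 (ENSG00000178150.9, 48270102 to 48287608, plus strand), which lies outside the clusters, was at 14.6, 14.8 and 14.3 CPM in DMSO-S0 and at 18.7, 18.96 and 17.9 CPM in dTAG-S0. With serum it was at 15.3, 13.9 and 17.3 CPM in DMSO and at 19.7, 16.4 and 21.7 CPM in dTAG. The groups were apart without serum and overlapped with it, and the averaged log2 fold change was 0.33 (SE 0.07, adjusted p = 0.00571). This call held under all 24 alternatives (adjusted p from 0.000119 to 0.0329).

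The 2 lower members lost their calls when single libraries were left out. ZNF90 of cluster 4, the first of the promoters with paired CCAAT boxes, was at 17.4, 18.4 and 15.4 CPM in DMSO-S0 and at 13.8, 13.2 and 14.7 CPM in dTAG-S0. With serum it was at 16.1, 14.3 and 12.7 CPM and at 12.6, 12.3 and 10.7 CPM, and all dTAG libraries were below all DMSO libraries at each serum level (averaged -0.28, SE 0.07, adjusted p = 0.0237). ZNF175 of cluster 9, known as OTK18 and able to repress the HIV-1 promoter, was at 35.0, 33.1 and 32.3 CPM in DMSO-S0 and at 28.4, 29.3 and 31.4 CPM in dTAG-S0. With serum it was at 26.6, 27.6 and 25.7 CPM and at 23.2, 24.5 and 18.3 CPM, again lower at each level (averaged -0.22, SE 0.06, adjusted p = 0.0343). ZNF90 lost its call without DMSO-S0 replicate 2 (0.0746), dTAG-S0 replicate 1 (0.0660), DMSO-S30 replicates 1 (0.0841) or 2 (0.0614), or dTAG-S30 replicate 3 (0.0837), within 0.00343 to 0.0841 over 24 alternatives. ZNF175 lost it without any 1 of 8 libraries (each of DMSO-S0 and DMSO-S30, dTAG-S0 replicate 1 and dTAG-S30 replicate 3), within 0.00428 to 0.167 over 24.

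**Figure D5:**
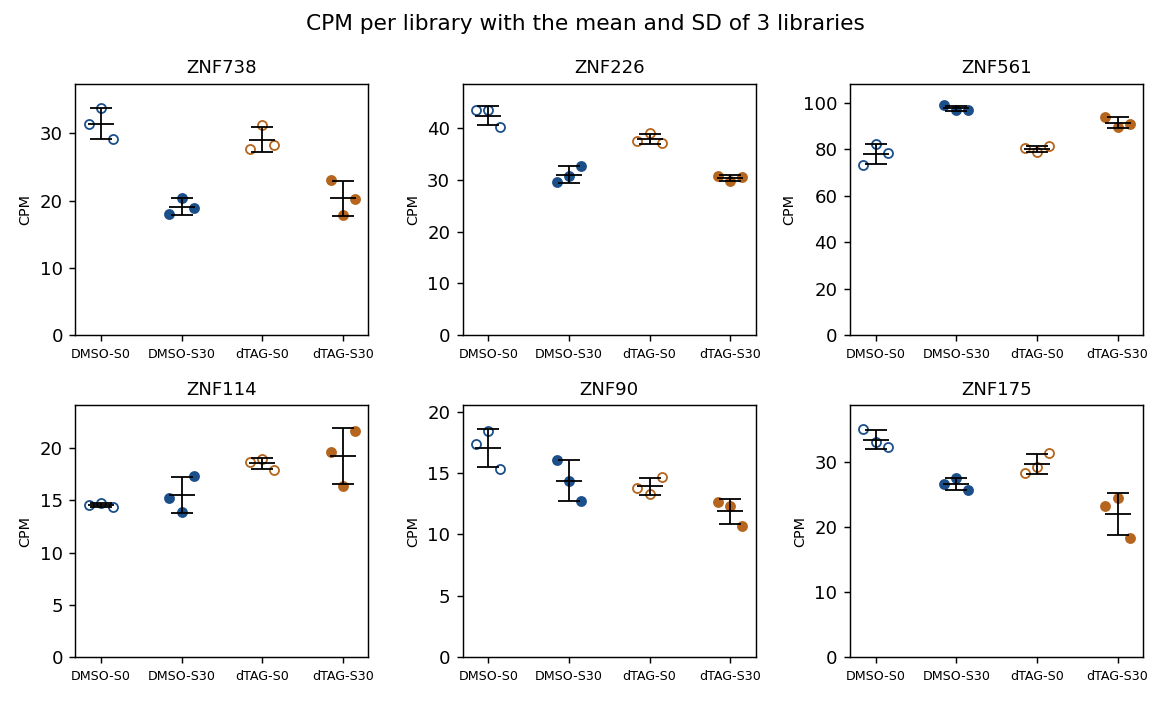
Normalised CPM per library (points) with the mean and SD of 3 libraries for 6 members in the 4 groups. ZNF738 and ZNF226 are lower and ZNF561 is higher with serum in both treatments, ZNF114 is higher with dTAG, and ZNF90 and ZNF175 are lower with dTAG at each serum level.

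Members with the next smallest p-values were not called. ZNF134 was at 17.5, 19.5 and 19.5 CPM in DMSO-S0 and at 20.2, 21.7 and 21.4 CPM in dTAG-S0, and with serum at 17.1, 17.5 and 17.4 CPM and at 19.3, 20.8 and 20.3 CPM. Every dTAG library was above every DMSO library of its serum level, and the averaged value was 0.19 (SE 0.06, adjusted p = 0.0556). ZNF497 differed by -0.43 without serum (SE 0.16, adjusted p = 0.240) and by -0.14 with it. By position, the averaged median was between -0.10 (cluster 5) and 0.05 (cluster 1) in the 10 clusters, and in the cluster with most members, cluster 10, it was 0.01. Members with a KRAB A-box pattern had an averaged median of -0.01 and those without of -0.03. Across the members, the effects of dTAG without and with serum had the same sign in 82 of 137. They compare different libraries but come from 1 fit. Pearson's r was 0.336 and Spearman's rho 0.341, and across all genes Pearson's r was 0.263.

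Of 22 listed genes through which KRAB zinc finger proteins act, 3 were lower after depletion. The list was chosen with earlier results of these data known. It held KAP1 and its partners SETDB1 and ATF7IP, and the HP1 genes CBX1, CBX3 and CBX5. It also held the HUSH complex and its associates, chromatin remodellers, histone deacetylases and others. The same 3 were lower and 0 were higher without and with serum. Of all genes tested, 0.466% and 0.634% were called lower and 0.878% and 0.596% higher. MORC2, an ATPase that works with the HUSH complex, was at 42.1, 38.2 and 39.8 CPM in DMSO-S0 and at 27.4, 27.3 and 28.5 CPM in dTAG-S0 (-0.52, adjusted p = 0.000233), and fell by 0.54 with serum (adjusted p = 0.000215). ATF7IP, which stabilises SETDB1, was at 153, 149 and 161 CPM and at 116, 120 and 114 CPM (-0.41, adjusted p = 6.21e-05), and fell by 0.39 with serum. TASOR, the scaffold of HUSH, was at 141, 142 and 138 CPM and at 117, 119 and 114 CPM (-0.27, adjusted p = 0.00940), and fell by 0.38 with serum. None of the 3 overlapped between dTAG and DMSO at either serum level. The median of the list was -0.05 in both comparisons, and the 19 others did not pass the test. TRIM28 itself did not differ with dTAG (-0.06, adjusted p = 0.786, and -0.04, adjusted p = 0.887), which checks nothing, since the degrader acts on the protein. With serum, 1 gene of the list rose (TRIM28) and 1 fell (SMARCAD1) in DMSO, and 2 rose and 3 fell in dTAG.

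No member passed the test of the interaction, the difference between the serum effects in dTAG and in DMSO, where 0.0382% of all genes did. In edgeR's test 0 members had an unadjusted p under 0.05, against 416 of all 13093 genes. The smallest p-values were those of ZNF565 (0.32, 95% interval -0.01 to 0.65), ZNF724 (-0.29, -0.58 to 0.01) and ZNF235 (0.23, -0.02 to 0.48). DESeq2 and the likelihood ratio test also called 0. The 95% interval of the difference lay within 1.5-fold for 115 members and within 2-fold for 131, and larger differences lie outside those intervals. The median was 0.01, as for all genes (0.00).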

How the data were processed

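RNA-Seq of 12 libraries was analysed from the read counts that the authors deposited, 1 whole number per gene or ERCC transcript and library. According to the study's methods, reads were trimmed (Trim Galore 0.6.4), mapped to hg38 (STAR) and counted over whole protein-coding genes, introns included (featureCounts, Subread 1.6.3), so unspliced RNA is part of each count. Strand, multi-mapping and overlap settings are not given in the sources used here.

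Genes with 10 or more counts in 6 libraries were kept. After upper-quartile scaling, 1 factor of unwanted variation was taken from 69 ERCC transcripts, and the 4 groups were fitted together in edgeR 4.0.16 (two-sided quasi-likelihood F-test, Benjamini-Hochberg over 13093 genes, threshold 0.05). DESeq2 1.42.0, other scalings, filters and left-out libraries were alternatives. The scripts were tested on simulated data.

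Members and lists were chosen with earlier results of these data known. Named are the largest called changes without overlap of groups (up to 8 each way for serum in DMSO, 3 for serum in dTAG), the called members or smallest p-values for dTAG and the interaction, the 5 highest levels per kb, the largest serum effect of each cluster, the rows nearest the filter and 15 genes with known roles. Other named members were added after their values were seen. Fingers and KRAB patterns were counted in GENCODE v44 coding sequences. The KRAB A-box pattern was widened after the data had been seen, to allow the residue L as well as W at a position.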

Additional observations from a re-analysis of the deposited data

How the results depend on the processing

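The direction of the members' serum effect, relative to all genes, held under every scaling: the median member lay 0.08 to 0.09 below the median gene (log2) in DMSO and in dTAG with upper-quartile, TMM, median-of-ratios and ERCC scaling. The medians themselves moved with the scaling. For serum in DMSO the median was -0.0908 with TMM, -0.0998 with median-of-ratios size factors, -0.0856 with ERCC library sizes, -0.151 with no spike-in factor, -0.118 with no count filter and -0.0999 with DESeq2. For serum in dTAG it was -0.0802 with TMM, -0.0882 with median-of-ratios size factors, -0.107 with ERCC library sizes, -0.123 with no count filter and -0.0882 with DESeq2. With ERCC library sizes it was 0.0151 for dTAG without serum, 0.00158 averaged and -0.0333 for the interaction, which was -0.00644 with no spike-in factor, and with no count filter it was -0.0296 for dTAG with serum. Calls with ERCC library sizes were 14 for serum in DMSO, 12 for serum in dTAG and 1 for dTAG averaged. DESeq2 called 21 for serum in dTAG (17 lower, 4 higher), and TMM called 28 for serum in DMSO. For dTAG without serum, no count filter and the likelihood ratio test each gave 1 call (ZNF114), and the latter gave 5 averaged. The causes were not tested. Leaving out 1 library gave 29 to 41 calls for serum in DMSO, 23 to 42 for serum in dTAG, 0 for dTAG at either serum level and 1 to 4 averaged. The medians were then -0.165 to -0.145 for serum in DMSO, -0.154 to -0.131 for serum in dTAG, -0.0207 to -0.00590 for dTAG without serum, -0.0249 to -0.00166 with serum, -0.0188 to -0.00858 averaged and -0.00861 to 0.0252 for the interaction. A gap of 2 Mb merged the 10 clusters into 6. Among 94 members overlapping no other model, 25 fell and 1 rose with serum in DMSO, and among 124 sharing at most 10% of their exonic words, 33 and 2, both chosen after seeing the data.

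With the replicate number as a block, 41 members were called for serum in DMSO, 34 in dTAG, 0 for dTAG at either serum level, 4 averaged and 0 for the interaction. Deviations of same-numbered libraries correlated at -0.153 to 0.139 over 18 pairs (median 0.0327, 1 pair over 0.1). Those of differently numbered libraries correlated at -0.199 to 0.256 over 36 pairs (median -0.0002, 6 pairs over 0.1). Whether libraries of the same number share a batch cannot be told from these values.

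Counting error limits members near the filter. Intervals cover the spread between libraries of a group, estimated over all 12 libraries and partly shared across genes, and no more.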
